A study of Mus musculus with 8 samples.

Results

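Blood vessels of the pancreatic islet, and the signals that act on them, were followed through 51 genes of endothelial identity and angiogenic signalling in islets of male C57BL/6J mice. The genes were taken from a list of names, and all 94 probe sets annotated to exactly one of them were used, out of 45101 on the array and 18194 genes named on it. Mice were given a normal rodent chow with 4 kcal% fat (NC) or a high fat diet with 45 kcal% fat (HF) from weaning at 4 weeks of age, for 12 weeks by the sample labels (the methods give a somewhat longer time). Mice of this strain lack functional nicotinamide nucleotide transhydrogenase, which holds for both diets. Islets were released with collagenase, purified on a density gradient and picked by hand, and the islets of 2 mice were combined into 1 sample. There were 4 NC samples (replicates 1, 2, 4 and 5) and 4 HF samples (replicates 21, 22, 23 and 24), with 1 array each, so that n counts pools of islets and the number of arrays limits the precision.

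Endothelial cells line every vessel, and those of the islet capillaries are fenestrated, with thin pores closed by diaphragms through which hormones pass into the blood. Beta cells secrete vascular endothelial growth factor (VEGF), which acts on VEGF receptors of these capillaries and maintains them. Angiopoietins act through the receptor Tek (Tie2) on vessel stability, apelin through its receptor Aplnr, and Notch ligands on neighbouring cells set which endothelial cells sprout and which become arterial. Larger vessels are marked by stored von Willebrand factor, and lymphatic vessels by another set of receptors and transcription factors.

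Of the 51 genes, 45 had at least 1 probe set above the filter on low values, with 75 of 94 probe sets retained, and the brightest retained probe set on average stood for a gene. Values are GCRMA intensities on the linear scale, and changes are log2 fold changes of HF minus NC from limma, with its standard error as SE. A gene was called at an adjusted p under 0.05 over all retained probe sets together with a fold change of at least 1.5. HF islets had lower levels of 14 of the 45 genes (4.28% of 12299 genes tested were lower) and higher levels of none (0.447% of all genes were higher). At an unadjusted p under 0.05 limma found 35 of the 45 lower and none higher, and the share over all genes was not counted at that threshold. The methods' t-test, an unpaired test that the methods name for comparing groups and not for the arrays, called none higher. With the fold limit set aside, 24 of the 45 were lower (5.86% of all genes). In 27 of the 45 all 4 HF values lay below all 4 NC values (10.3% of all genes), and in none did all lie above (5.75% of all genes). The median log2 fold change of the 45 genes was -0.54, beside 0.00 for all 12299 genes, and 43 of them had a negative value. Of the 75 retained probe sets 17 were lower (3.06% of all retained probe sets). The median intensity of all probe sets was 13.0 to 13.8 in the 8 samples. Within diets the samples were not level for these genes, since HF replicate 22 was the highest HF sample in 22 of the 45 and NC replicate 4 the lowest NC sample in 24. In RNA of whole islets fewer cells of a type and less RNA per cell cannot be told apart.

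**Figure D1:**
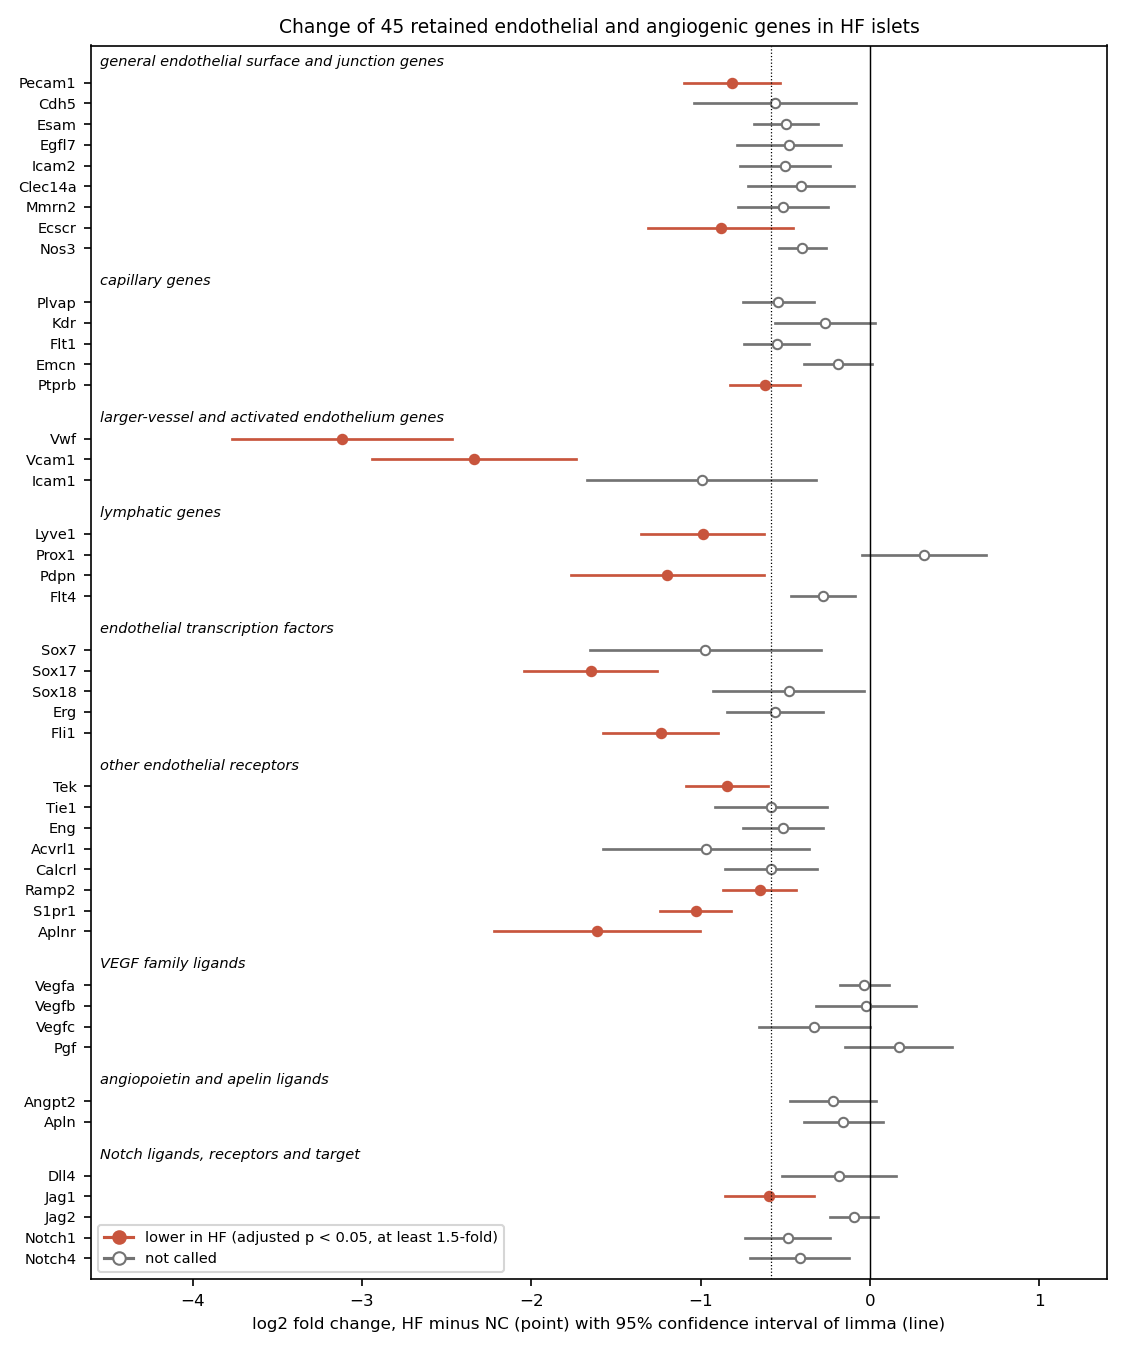
Log2 fold change (x axis, HF minus NC) of each of the 45 retained genes with its 95% confidence interval from limma, grouped by role. The 14 called genes are filled, the dotted line marks a 1.5-fold fall, and Vwf at -3.12 and Vcam1 at -2.34 lie furthest from 0 while Vegfa lies at -0.03.

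Sequence in front of these genes was taken from a RefSeq promoter table (build GRCm38.p6), which held a window of 250 bases before to 50 after a start site for 28 of the 51 genes and for 3 of the 14 called ones (Tek, Pdpn and Jag1). The windows of Tek and Vegfa are shown, an endothelial receptor that fell and a ligand that did not pass the test. Capitals mark the GATA letters AGATAAG.

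Tek, chr4:94739039-94739338, plus strand, GRCm38.p6: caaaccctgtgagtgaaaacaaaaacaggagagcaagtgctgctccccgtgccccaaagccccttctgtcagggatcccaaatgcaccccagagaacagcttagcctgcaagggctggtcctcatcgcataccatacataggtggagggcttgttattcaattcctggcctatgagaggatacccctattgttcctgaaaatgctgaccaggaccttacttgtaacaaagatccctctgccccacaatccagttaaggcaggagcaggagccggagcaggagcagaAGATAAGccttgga

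Vegfa, chr17:46032328-46032627, minus strand, GRCm38.p6: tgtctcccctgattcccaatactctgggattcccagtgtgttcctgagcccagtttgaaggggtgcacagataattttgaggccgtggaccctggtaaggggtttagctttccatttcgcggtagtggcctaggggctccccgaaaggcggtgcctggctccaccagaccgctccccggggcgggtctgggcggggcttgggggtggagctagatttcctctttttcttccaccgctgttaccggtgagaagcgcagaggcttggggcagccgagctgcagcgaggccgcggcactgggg

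In the Tek window AGATAAG starts at base 37 after the start site. The window of Vegfa holds none of the letters searched on both strands, which were CAGGAAG for ETS factors, ACAATGG for SOX factors, AGATAAG for GATA factors and ACGTG for the response to hypoxia. A second Vegfa window of the table, at an internal start, holds ACGTG once. Among all 32851 promoter windows CAGGAAG is held by 13.3%, ACAATGG by 3.66%, AGATAAG by 3.04% and ACGTG by 19.6%. None of the 3 windows of called genes holds CAGGAAG, while 7 of 28 windows of genes that were not called do, among them those of Emcn, Erg and Notch4. The hypoxia response letters occur in the window of Pdpn, where their matches on the 2 strands overlap. Of the 28 windows of genes that were not called, 1 holds AGATAAG, that of Erg. ACGTG is held by 2 of these 28, those of Clec14a and Vegfa.

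General endothelial genes, most of which act in the junctions or on the surface of endothelial cells, all had negative changes. Of the 9 retained genes 2 were called lower and 7 were not, and the groups did not overlap in 7. The median log2 fold change was -0.50, with a range from -0.88 to -0.40. Pecam1, the adhesion molecule CD31 of endothelial junctions (also carried by leukocytes), had an intensity of 854, 847, 673 and 807 in NC replicates 1, 2, 4 and 5 and of 421, 550.3, 457 and 388 in HF replicates 21, 22, 23 and 24. Every HF sample lay below every NC sample, with a log2 fold change of -0.81 with an SE of 0.12 (adjusted p = 0.00862). Ecscr, a surface regulator of endothelial migration, had 197, 154, 184 and 247 in NC and 127, 77.0, 113 and 108 in HF, again without overlap, and fell by 0.88 on the log2 scale (SE 0.19, adjusted p = 0.0314). When NC replicate 1, 4 or 5 or HF replicate 23 or 24 was left out Ecscr was no longer called (adjusted p between 0.0568 and 0.0828). Esam, an adhesion molecule of tight junctions, had 1442 ± 128 in NC and 1021 ± 73.5 in HF (mean ± SD of 4 samples each) and a log2 fold change of -0.50 (adjusted p = 0.0133), under the fold limit. Nos3, the endothelial nitric oxide synthase, had 119 ± 6.18 in NC and 90.5 ± 4.49 in HF and -0.40 (adjusted p = 0.00876). Icam2, an endothelial adhesion molecule, had 193 ± 19.0 in NC and 136 ± 18.8 in HF (-0.50, adjusted p = 0.0429), and Mmrn2, a matrix protein of vessels, had 1399.9 ± 132 in NC and 986 ± 151 in HF (-0.51, adjusted p = 0.0413), so that both had an adjusted p under 0.05 and a change under the limit. Mmrn2 was read by 4 probe sets, of which 1 that does not represent the gene was called lower, with a log2 fold change of -0.78. For Cdh5, VE-cadherin, the values were 289, 252, 207 and 219 in NC and 146, 145, 250.0 and 132 in HF, where HF replicate 23 lay among the NC samples and the other HF samples below all of them (log2 fold change -0.56, adjusted p = 0.171). Clec14a, a surface protein of endothelium, had 321 ± 44.8 in NC and 243 ± 40.1 in HF (-0.41, adjusted p = 0.133), and Egfl7, a secreted one, had 747 ± 97.7 in NC and 538 ± 89.5 in HF (-0.48, adjusted p = 0.0792). Neither passed the test. The other retained probe sets of Egfl7 had log2 fold changes of -0.37, -0.23 and 0.19, and that of Clec14a had -0.36. The diets overlapped in each of them.

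Of the 5 capillary genes 1 was called, and the median log2 fold change was -0.54. Plvap, the protein of the diaphragms that close capillary fenestrae, had an intensity of 7452, 6802, 7268 and 7688 in NC and 4995, 5919, 4445 and 4809.7 in HF. The groups did not overlap and the log2 fold change was -0.54 (95% confidence interval -0.75 to -0.33, adjusted p = 0.0141), under the fold limit, which it passed without HF replicate 22 (log2 fold change -0.62). Ptprb, the endothelial phosphatase VE-PTP, had 1495, 1356, 1372 and 1539 in NC and 854, 1062, 854 and 989 in HF and fell by 0.62 (SE 0.09, adjusted p = 0.00680), and its second retained probe set was called as well. Ptprb came under the fold limit without HF replicate 21 or 23 (log2 fold change -0.58 each). Flt1, the first VEGF receptor, had 2878 ± 265 in NC and 1961 ± 140.5 in HF (mean ± SD of 4 samples each) and a log2 fold change of -0.55 (adjusted p = 0.00903), under the fold limit and without overlap. Its other 3 retained probe sets had log2 fold changes between -0.60 and -0.36, with overlap between the diets in each. Kdr, the main signalling receptor of VEGF, had 1376, 1462, 1170.1 and 1793 in NC and 1133, 1189, 1336 and 1122 in HF. Its groups overlapped, and the log2 fold change of -0.27 (95% confidence interval -0.56 to 0.03) did not pass the test. Emcn, the capillary and venous sialomucin endomucin, had 4059, 3629, 3162 and 3749 in NC and 2988, 3122, 3194 and 3493 in HF, with overlap and a log2 fold change of -0.19 (95% confidence interval -0.39 to 0.01). Both intervals hold 0, and neither reaches a fall of 1.5-fold.

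Genes of larger vessels and of activated endothelium held the 2 largest falls among the 45, and 2 of the 3 retained ones were called. Vwf, von Willebrand factor, which is stored in endothelial granules and binds platelets, had an intensity of 251, 167, 119 and 205 in NC and 14.6, 24.9, 28.7 and 17.2 in HF. It was 8.68-fold lower in HF islets (log2 fold change -3.12, SE 0.28, adjusted p = 0.00132), and its highest HF value was far below its lowest NC value. Vcam1, an adhesion molecule for leukocytes that activated endothelium, smooth muscle and fibroblasts can carry, had 177, 114, 112 and 138 in NC and 19.2, 35.2, 36.3 and 19.4 in HF. It was 5.06-fold lower (log2 fold change -2.34, SE 0.26, adjusted p = 0.00287). The other 2 retained Vcam1 probe sets were dim in both diets. On 1 of them 2 HF values lay under the filter level of 8.82, so that it was kept through the NC samples, and the other had a log2 fold change of -0.07. Icam1, which also binds leukocytes, had 63.3, 148, 70.9 and 88.9 in NC and 44.8, 30.1, 47.3 and 58.5 in HF without overlap. NC replicate 2 was high, and the log2 fold change of -0.99 had an adjusted p = 0.0949. The selectins Sele and Selp had no retained probe set, with every value of Sele and all but 1 of Selp under 8.82, the floor of the filter on low values.

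**Figure D2:**
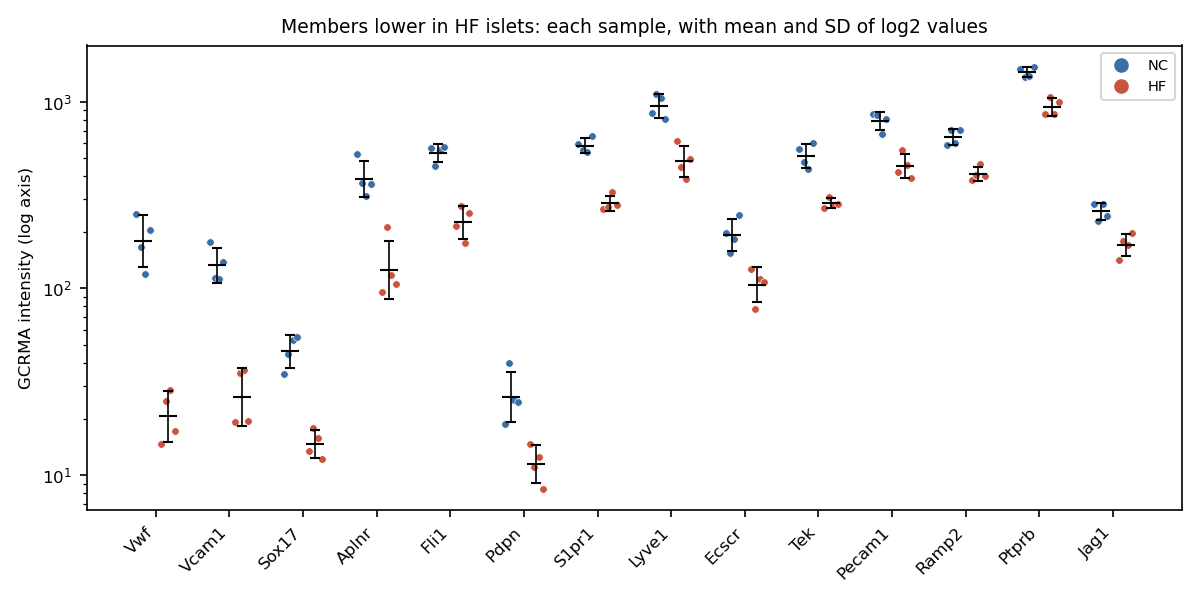
GCRMA intensity (log axis) of the 14 called genes in each NC and HF sample (4 each), bars showing mean and SD on the log2 scale, ordered by log2 fold change. In each gene every HF sample lies below every NC sample, and the gap is widest for Vwf (119 or more in NC, 28.7 or less in HF).

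Of the 4 retained lymphatic genes 2 were called lower and 1 had a positive value. Lyve1, the hyaluronan receptor of lymphatic endothelium that some macrophages also carry, had an intensity of 869.7, 1099, 1042 and 810.3 in NC and 618, 444, 387 and 490.4 in HF. HF samples lay below all NC samples, with a log2 fold change of -0.99 with an SE of 0.16 (adjusted p = 0.0110). Its other probe set, at -0.72, did not pass (adjusted p = 0.0710). Pdpn, podoplanin of lymphatic endothelium and of some fibroblasts and mesothelial cells, had 18.8, 40.0, 25.3 and 24.6 in NC and 14.7, 11.0, 12.4 and 8.41 in HF, which were low levels in all samples. It fell by 1.20 (SE 0.25, adjusted p = 0.0291), and the value of HF replicate 24 was under 8.82, the floor of the filter. Pdpn was no longer called when NC replicate 4 or 5 or HF replicate 22, 23 or 24 was left out (adjusted p between 0.0549 and 0.0793). Flt4, the receptor of VEGF-C, had 442 ± 40.4 in NC and 364 ± 25.7 in HF (mean ± SD of 4 samples each) and a log2 fold change of -0.28 (adjusted p = 0.100). Prox1, the master transcription factor of lymphatic endothelium that islet endocrine cells express as well, had 212, 213, 221 and 243 in NC and 239.7, 279, 387 and 228 in HF. Its log2 fold change was 0.32 (95% confidence interval -0.05 to 0.68, adjusted p = 0.310), one of 2 positive values among the 45 genes, and it was positive on each of its 3 probe sets. Mmrn1, which marks lymphatic endothelium and is stored in platelets, was not retained. On its brighter probe set NC replicates 1 and 5 had 16.6 and 19.6, while NC replicates 2 and 4 and all HF samples were between 7.28 and 7.92.

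Of the 5 endothelial transcription factors 2 were lower. Sox17, a SoxF factor of arterial endothelium, had an intensity of 34.8, 44.6, 52.6 and 54.7 in NC and 13.5, 17.9, 15.7 and 12.2 in HF, 3.14-fold lower in HF (log2 fold change -1.65, SE 0.17, adjusted p = 0.00210). Its HF values were close to the median intensity of all probe sets, and Sox17 was not retained with the stricter filter. Its other retained probe set was dimmer and did not pass (log2 fold change -0.50, adjusted p = 0.101), although its groups did not overlap. Fli1, an ETS factor of endothelial and blood cells, had 564, 453, 548 and 570.0 in NC and 215, 275, 174 and 252 in HF and fell by 1.24 (SE 0.15, adjusted p = 0.00358). Erg, the ETS factor that keeps endothelial identity, had 111 ± 11.9 in NC and 75.3 ± 11.5 in HF (mean ± SD of 4 samples each), with a log2 fold change of -0.56 (adjusted p = 0.0359) just under the fold limit. The other SoxF factors overlapped between diets, with HF replicate 22 high in both. Sox7 had 157, 93.4, 102 and 93.2 in NC and 43.3, 97.6, 40.4 and 55.1 in HF (log2 fold change -0.97, adjusted p = 0.105), and Sox18 had 485, 474, 624 and 522 in NC and 305, 565, 349 and 329 in HF (log2 fold change -0.48, adjusted p = 0.208).

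All 8 of the other endothelial receptors had negative changes, and 4 were called lower. Aplnr, the apelin receptor, had an intensity of 523, 367, 314 and 361 in NC and 95.1, 212, 118 and 105 in HF. The highest HF value, in replicate 22, was still below the lowest NC value, and the log2 fold change was -1.61 with an SE of 0.26 (adjusted p = 0.0123), with an adjusted p = 0.0525 in the methods' t-test. Its other retained probe set, dim in both diets, had -0.22 and did not pass (adjusted p = 0.227). S1pr1, the sphingosine 1-phosphate receptor of endothelium and lymphocytes, had 594, 547, 536 and 656 in NC and 266, 271, 326 and 279.8 in HF, 2.04-fold lower (log2 fold change -1.03, SE 0.09, adjusted p = 0.00120). Tek, the receptor of the angiopoietins whose promoter is shown above, had 558, 473, 436 and 598 in NC and 269.7, 310.1, 281 and 283 in HF. HF values were close to one another and below all NC values, with a log2 fold change of -0.84 with an SE of 0.11 (adjusted p = 0.00428). Ramp2 and Calcrl form the receptor of adrenomedullin. Ramp2 had 582, 700.3, 599 and 707 in NC and 378, 402, 464 and 402 in HF and fell by 0.65 (adjusted p = 0.00679), and Calcrl had 945 ± 109.8 in NC and 632 ± 93.1 in HF (mean ± SD of 4 samples each) with a log2 fold change of -0.58 (adjusted p = 0.0278), at the fold limit but under it. Eng, a TGF-beta co-receptor of endothelium, had 936 ± 95.6 in NC and 655 ± 71.3 in HF, with a log2 fold change of -0.52 (adjusted p = 0.0252) under the fold limit. Tie1, the partner of Tek, had 316 ± 55.3 in NC and 210.0 ± 32.0 in HF (-0.58, adjusted p = 0.0536), again without overlap. Acvrl1, the BMP receptor ALK1, had 100.1, 122, 83.5 and 146 in NC and 44.3, 93.7, 50.5 and 48.9 in HF (-0.97, adjusted p = 0.0750), with HF replicate 22 above the lowest NC value. The other retained probe sets of Calcrl, Eng and Acvrl1 had log2 fold changes of 0.12, -0.35 and -0.41. The diets overlapped in each, and none of them was called.

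None of the 4 VEGF family ligands was called, and their median log2 fold change was -0.03. Vegfa had an intensity of 3512, 3399, 3671 and 3815 in NC and 3401, 3744, 3619 and 3309 in HF. The samples of both diets were mixed in order, with a log2 fold change of -0.03 and a 95% confidence interval of -0.18 to 0.11 that stays well inside the fold limit of 1.5 in either direction. The other Vegfa probe set had 568 ± 31.1 in NC and 687 ± 74.7 in HF (mean ± SD of 4 samples each), where all HF values lay above all NC values, and a log2 fold change of 0.27 that did not pass (adjusted p = 0.115). Vegfb had 910.1, 915, 906 and 901 in NC and 897, 705, 1138 and 882 in HF. The NC samples were nearly equal, the HF samples lay on both sides of them, and the log2 fold change was -0.02 (95% confidence interval -0.32 to 0.27). Pgf, placental growth factor, which binds Flt1, had 288 ± 54.6 in NC and 320.5 ± 30.1 in HF (mean ± SD of 4 samples each) and a log2 fold change of 0.17 (95% confidence interval -0.15 to 0.48). Vegfc, the lymphatic growth factor, had 659 ± 99.2 in NC and 525 ± 77.7 in HF and -0.33 (95% confidence interval -0.65 to -0.00, adjusted p = 0.238).

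Angiopoietin and apelin ligands were not called. Angpt2, which endothelium releases and which counters Angpt1, had an intensity of 103, 88.3, 113 and 95.2 in NC and 87.0, 88.3, 71.6 and 96.6 in HF, with overlap and a log2 fold change of -0.22 (95% confidence interval -0.47 to 0.04). Apln, the ligand of Aplnr, had 11.7, 11.7, 11.1 and 11.7 in NC and 11.0, 11.2, 8.30 and 11.2 in HF, close to the filter level of 8.82 and under it in HF replicate 23, with a log2 fold change of -0.16 (95% confidence interval -0.39 to 0.08). Both Angpt1 probe sets lay under the filter in all samples.

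**Figure D3:**
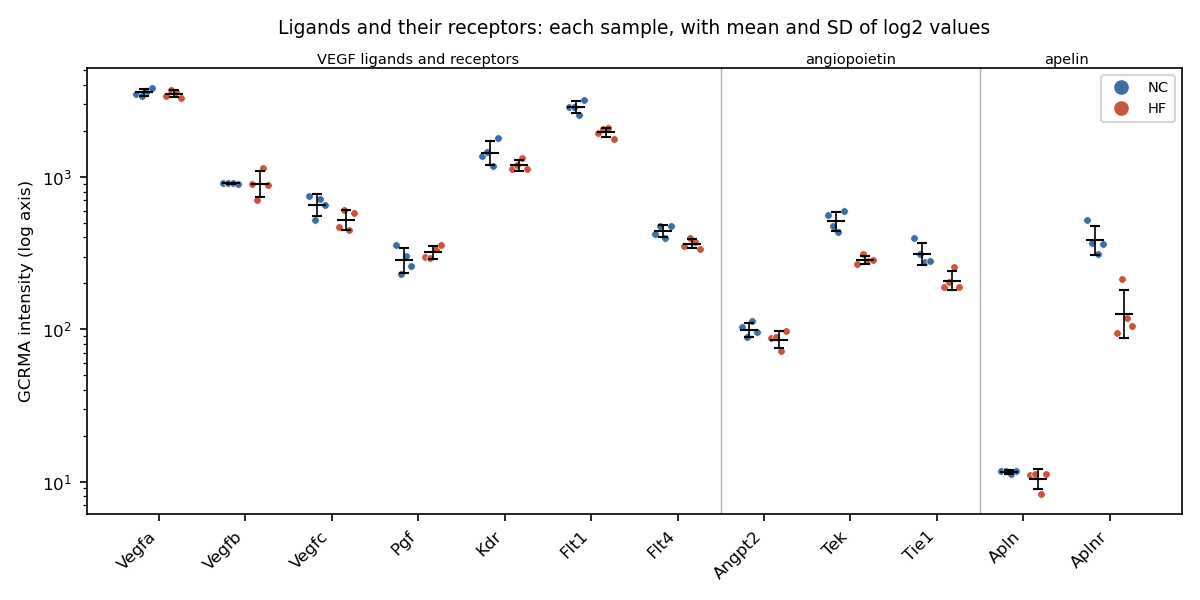
GCRMA intensity (log axis) of VEGF, angiopoietin and apelin ligands and of their receptors in each NC and HF sample (4 each), bars showing mean and SD on the log2 scale. Vegfa overlaps between diets, Flt1, Tek, Tie1 and Aplnr do not, and levels of different genes are not comparable.

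In the Notch pathway, Jag1, a ligand of vessels and duct cells, was the single called gene. It had an intensity of 283, 229.7, 281 and 244 in NC and 143, 179.8, 170.0 and 197 in HF, without overlap, and a log2 fold change of -0.59 with an SE of 0.11 (adjusted p = 0.0223), only just past the fold limit. Leaving out NC replicate 1 or 4 or HF replicate 21 or 23 took Jag1 out of the called genes, as did another quantile normalization or centring on the median (log2 fold change -0.58 in each, under the fold limit) and the mean over its probe sets (-0.27, adjusted p = 0.0799). Its other retained probe set, which was dim, had a log2 fold change of 0.05. Notch1, a Notch receptor of many cell types, had 475, 417, 372 and 399.5 in NC and 265, 303, 349 and 273 in HF. The groups did not overlap, and the change of -0.49 had an adjusted p = 0.0389 and was under the fold limit. Notch4, the receptor of endothelium, had 425, 485, 421 and 531 in NC and 320.1, 313, 439 and 332 in HF, with HF replicate 23 among the NC samples (log2 fold change -0.41, adjusted p = 0.105). Dll4, the ligand of sprouting tip cells, had 48.9 ± 10.7 in NC and 42.5 ± 3.63 in HF (mean ± SD of 4 samples each) and a log2 fold change of -0.18 (95% confidence interval -0.52 to 0.15), and Jag2, another Notch ligand, had 291 ± 18.6 in NC and 272 ± 8.76 in HF with a log2 fold change of -0.09 (95% confidence interval -0.23 to 0.05). The target gene Hey1 and the junction gene Cldn5 were not retained, with all values under 8.82.

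Whether genes of larger vessels, lymphatics and ligands changed by another amount than a general endothelial gene was asked with the log2 ratio of 11 genes to Pecam1 in the same sample, by exact two-sided permutation tests over the 70 arrangements of 4 and 4 samples. The difference of the log2 ratios, HF minus NC, was -2.30 for Vwf, -1.52 for Vcam1 and -0.83 for Sox17, with all 4 HF ratios below all 4 NC ratios in each. For Vegfa it was 0.78, with all 4 above. The exact p of these 4 genes was 0.0286, the smallest possible, and 0.0786 after adjustment over the 11 genes, so that none passed the correction. With only 4 genes at the smallest possible p the correction could not be passed, so it decides nothing about them. The difference was 0.55 for Kdr (exact p = 0.0571) and -0.17 for Lyve1 (exact p = 0.457). With Cdh5 in place of Pecam1 the differences were -2.56 for Vwf, -1.78 for Vcam1, -1.09 for Sox17 and 0.53 for Vegfa. All 4 HF ratios stayed below all 4 NC ratios for Vwf and Vcam1 (exact p = 0.0286). Sox17 had 3 of 4 below (exact p = 0.0571) and Vegfa 3 of 4 above (exact p = 0.0857). Kdr had 0.30 (exact p = 0.314). None of the 11 passed the correction (the smallest adjusted p was 0.157), which again could not be passed with so few genes at the smallest possible p. Pecam1 itself had -0.81, beside a median of -0.50 for the general endothelial genes. A larger fall of the reference gene raises every difference from it.

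**Figure D4:**
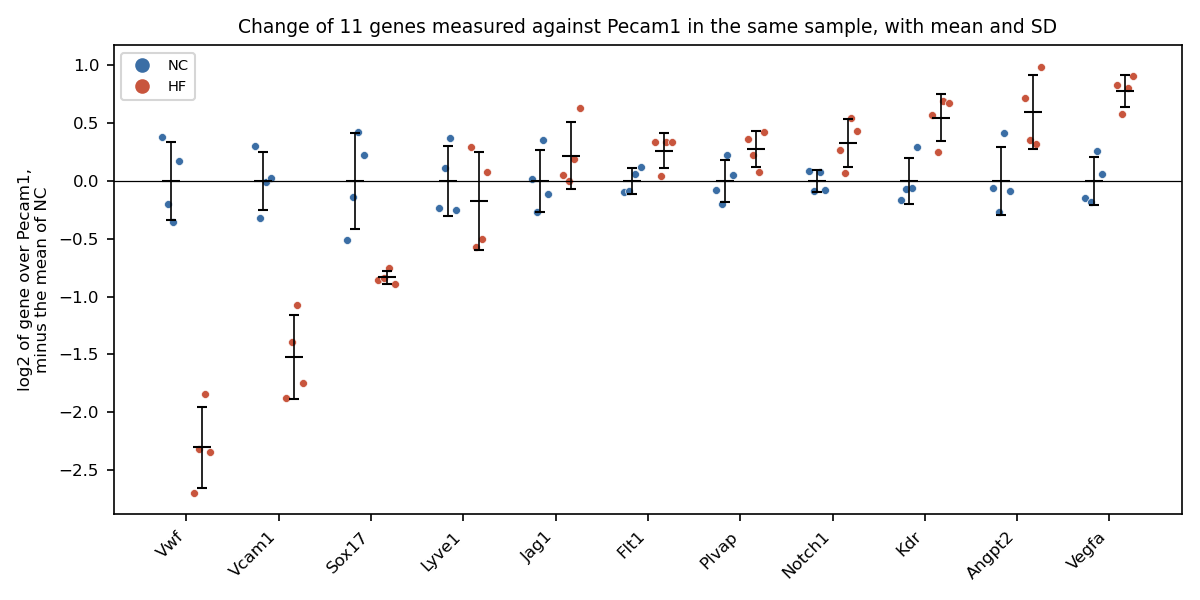
Log2 ratio of 11 genes to Pecam1 in each sample, less the mean of the NC samples (y axis), with means and SD as bars for 4 NC and 4 HF samples. Vwf, Vcam1 and Sox17 lie below the NC samples and Vegfa above them in all 4 HF samples.

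The same question was put to all probe sets at once by centring each sample on the mean of the 9 general endothelial genes before the limma fit. This shifts the median of all genes from 0.00 to 0.56, so that 2.04% of all genes come out lower and 41.8% higher. Among the 36 members not used for the centring 6 stayed lower, which were Vwf (log2 fold change -2.56, adjusted p = 2.08e-04), Vcam1 (-1.78, adjusted p = 3.71e-04), Sox17 (-1.09, adjusted p = 4.79e-04), Aplnr (-1.05, adjusted p = 0.00108), Fli1 (-0.68, adjusted p = 0.00170) and Pdpn (-0.64, adjusted p = 0.0269). These 6 genes passed the test and the fold limit below the mean of the general endothelial genes. S1pr1 (-0.47, adjusted p = 0.00145) and Tek (-0.28, adjusted p = 0.0150) passed the test under the fold limit. Because 41.8% of all genes come out higher through the shift, adjustment over all probe sets corrects little on this scale. Prox1 and Pgf came out higher relative to endothelium, at 0.88 (adjusted p = 5.53e-04) and 0.73 (adjusted p = 0.00129), beside the median shift of 0.56. On this scale Plvap had 0.021, Flt1 0.01, Ptprb -0.059, Ramp2 -0.09, Tie1 -0.022, Eng 0.046 and Jag1 -0.033, and none of these passed the test and the fold limit.

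Of 25 other endothelial genes that are no members 22 were retained, of which 10 were lower and none higher, with a median log2 fold change of -0.59. Procr, the endothelial receptor of protein C, had 83.5 ± 11.9 in NC and 25.2 ± 3.92 in HF (mean ± SD of 4 samples each) and a log2 fold change of -1.73 (adjusted p = 9.82e-04), Cav1, the main protein of caveolae, -1.03 (adjusted p = 9.82e-04), and S1pr3, another sphingosine 1-phosphate receptor, -1.39 (adjusted p = 0.00236). Of 18 retained genes of angiogenic signalling from a second list 2 were lower and none higher, with a median of -0.50. The genes with the smallest p there were Nrp1, the VEGF co-receptor neuropilin, at -0.42 (adjusted p = 0.0115), Plxnd1, a semaphorin receptor of vessels, at -0.58 (adjusted p = 0.0123), both under the fold limit, and Notch3, the Notch receptor of mural cells, at -0.98 (adjusted p = 0.0128). Thbs1, an inhibitor of angiogenesis, was the other gene called, at -0.93.

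Markers of other cells that islet preparations can hold moved with diet too, and their part in the changes of Vcam1, Pdpn, Lyve1, Fli1, Pecam1, S1pr1 and the other members was not tested. Fibroblast markers were lower in 8 of 8 (median -2.43), and their summed intensity was 9198 to 14196 in NC and 1569.6 to 3203 in HF. Pericyte and smooth muscle markers were lower in 5 of 8 (median -1.34, 11089 to 12328 in NC and 7347 to 8648 in HF). Leukocyte markers were lower in 4 of 7 (median -0.77, 2242 to 2634 in NC and 1181 to 1271 in HF), and B cell and lymph node markers in 2 of 7 (median -1.34, 940.4 to 1258 in NC and 194 to 589 in HF). Cspg4 and Cnn1 of mural cells, Itgam and Cd3e of leukocytes, and Ccl19, Madcam1 and Cr2 of lymph nodes were not measured here. Glycam1, a product of the high endothelial venules of lymph nodes, had 23.4, 170.1, 111 and 28.8 in NC and 9.44, 16.8, 11.9 and 14.2 in HF (log2 fold change -2.22, adjusted p = 0.0848). None of the 10 beta cell markers was called (median 0.10, 295075 to 303037 in NC and 312541 to 328650 in HF), and they were bright in every sample, and none of 5 markers of alpha, delta and PP cells (median -0.25, 175735 to 179272 and 163361 to 172050). Of 7 acinar markers none was called (median -0.02, 186598 to 236318 and 201328 to 228869). The enzyme genes Cpa1, Cel, Ctrb1, Cela1 and Cpb1, which make up most of the sum, were bright in every sample. The other acinar markers, Bhlha15 and Ptf1a, moved in opposite directions without overlap between diets. Bhlha15 had 0.53 (adjusted p = 0.0920) and Ptf1a -0.64 (adjusted p = 0.173). Of duct markers, which were dim, none of 4 was called (median -0.37, 46.3 to 75.7 and 34.9 to 37.0). Krt19 had -1.77 (adjusted p = 0.0534) without overlap between diets, Muc1 -0.70, Sox9 -0.04 and Cftr 0.01. Of the mesothelial and red blood cell markers 1 each was retained, Msln at 0.05 and Slc4a1 at -0.07. When samples were centred on the beta cell markers, which moved the median of all genes to -0.076, 21 of the 45 genes were lower in place of 14 (5.47% of all genes in place of 4.28%), and none was higher (0.293% of all genes).

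**Figure D5:**
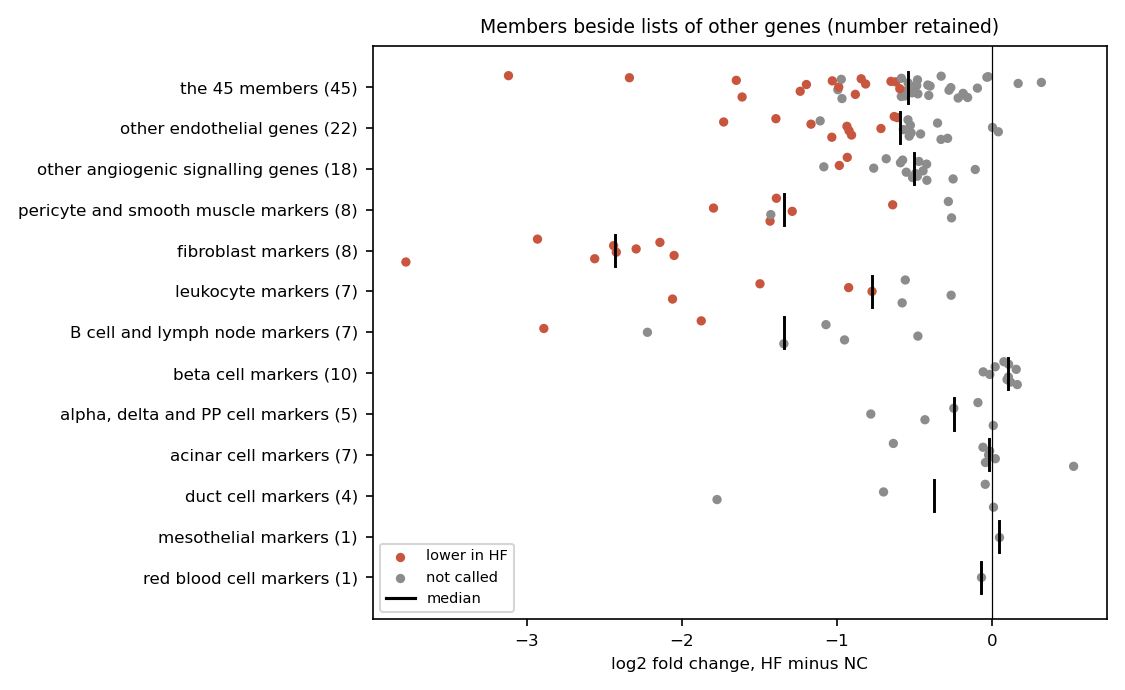
Log2 fold change (x axis, HF minus NC) of each retained member and of each retained gene of 12 other lists, with medians as vertical bars. The members have a median of -0.54, fibroblast markers one of -2.43 and beta cell markers one of 0.10.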

How the data were processed

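RNA of 8 islet samples was measured on Affymetrix mouse expression arrays. The authors read the probe intensities into ArrayAssist Lite and summarised them with GCRMA, and the deposited values are intensities on the linear scale, from 1.33 to 142713. They were taken to log2 here. In place of present calls, as many probe sets as the study tested were kept by their third-highest value over the samples, whatever the diet, down to 8.82. Of 45101 probe sets 34958 are annotated to 1 gene, 932 to several and 9211 are unnamed here, and 2 that name Ramp2 with a second gene were left out. The diets were compared by limma 3.58.1 under R 4.3.3 with lmFit and eBayes and Benjamini-Hochberg adjustment over all retained probe sets, and single ratios with exact permutation tests. The fit was tested on simulated data. SAM, which the methods name for the arrays, was not run here. The methods' t-test is the unpaired one that they give for differences between 2 groups, applied here to each probe set. All columns of the table belong to these samples. The limma p-values set the difference between diets against the variation between pools of islets, moderated over all retained probe sets. Those of the ratios come from rearranging the samples. Variation between single mice was not measured.

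Alternatives were the filter, the scaling, the moderation, sample weights, the methods' t-test, the fold limit, the probe set of a gene and leaving out each sample. Adjustment over 1 probe set per gene was added after seeing the data. Values of every sample are given for called genes and for the 2 brightest genes of role groups with fewer than 2 calls, and others given in full were chosen after their values were seen. The genes, role groups and 12 other lists were chosen with earlier results of these data known, and the counts over them are descriptions.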

Additional observations from a re-analysis of the deposited data

Results flagged for a closer look

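In 7 of 90 groups of 4 samples, over the 45 retained genes, 1 sample lay further from the other 3 than Dixon's 95% limit allows. Chance alone gives about 1 in 20. The distances were taken on the log2 scale, and the values printed here are linear intensities. Cdh5 was high in HF replicate 23 at an intensity of 250.0, with the others between 132 and 146. Egfl7 was high in NC replicate 5 at 892, with the others between 682 and 714, and Sox7 was high in NC replicate 1 at 157, with the others between 93.2 and 102. In HF replicate 22, Calcrl was high at 771 beside 573 to 596, and Jag2 at 285 beside 267 to 269. Apln was low in NC replicate 4 at 11.1, beside 11.7 in the others, and low in HF replicate 23 at 8.30, beside 11.0 to 11.2.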

How the results depend on the processing

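The 14 lower genes were 12 with no filter and 12 with the stricter filter, 10 with the adjusted methods' t-test and 12 to 20 when 1 sample was left out, and no gene was higher in any of these. The 17 lower probe sets were 11 with the adjusted t-test. Without a fold limit 24 genes and 28 probe sets were lower, and with a limit of 2-fold 7 genes and 7 probe sets. The share over all genes was not counted with the other filters, with the t-test, with a sample left out or at the 2-fold limit. Centred on general endothelial genes, 6 genes and 6 probe sets were lower and 2 genes and 8 probe sets higher. That scaling adds 0.56 to every change by construction and turned the sign of some, with log2 fold changes of 0.021 for Plvap, 0.38 for Emcn, 0.53 for Vegfa, 0.54 for Vegfb, 0.34 for Angpt2, 0.40 for Apln, 0.076 for Notch1 and 0.15 for Notch4. On the probe set with the smallest spread Angpt2 was 0.013 and Jag1 0.052, and the calls of Vcam1, Sox17, Aplnr and Jag1 ended, since the dimmer probe sets then stand for these genes. Averaged over probe sets Vegfa was 0.12. Vegfb lay between -0.14 and 0.088 when 1 sample was left out. Ecscr and Pdpn were not called with no filter, nor Ecscr, Pdpn, Aplnr and Jag1 with the adjusted t-test. Sox17 and Pdpn were not retained with the stricter filter. No paired analysis was possible because the diets share no replicate numbers. Pdpn and Apln each had 1 HF value under 8.82, the level at which the filter ended.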
